A study of Mus musculus with 60 samples.

Results

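The mitosis and DNA replication genes are a list of 42 genes, and each was represented by the probe set that carries its symbol alone and has the highest mean over the arrays. 41 of the 42 had such a probe set among 18194 genes. The expression of Ccnb1, a mitotic cyclin, is not analysed here because the platform annotation names no probe set for it alone. Its promoter is among those counted below. 40 members passed the filter on low values (above the array's median on at least 8 arrays) with 12791 genes in all, and Tyms, the enzyme that makes thymidylate, did not, since none of its 4 probe sets exceeded the median on any array.

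Expression was measured in 60 carcinomas from 55 FVBBX mice, a backcross of SPRET/Ei × FVB/N hybrids to FVB/N, after the skin of the back had been treated with DMBA, the initiating carcinogen, and TPA, the tumour promoter. The labels call 38 tumours squamous cell carcinoma (SCC, 35 mice), 14 spindle cell carcinoma (13 mice) and leave 8 without histology (7 mice), and 5 mice gave 2 samples each, which were averaged. SCC mice were well (13), moderately (13) or poorly (9) differentiated, 14 mice carried a tumour labelled p53 mutant and 41 did not, 15 had positive and 19 negative nodes, and 17 had fewer than 2 papillomas at 20 weeks (resistant) against 16 with more than 7 (sensitive). All groups share the backcross, DMBA and TPA, and the dose and age are not given in the labels used here. All differences below are on the log2 scale of the arrays, and in a bulk tumour fewer cycling cells and less RNA per cycling cell cannot be told apart.

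A dividing cell copies its DNA in S phase and separates the copies in mitosis. The MCM proteins unwind DNA ahead of the polymerases, Pcna is the sliding clamp that holds them, and ribonucleotide reductase (Rrm1, Rrm2) supplies the nucleotides. Later, cyclins with Cdk1 drive entry into mitosis, kinetochores bind chromosomes to the spindle, the checkpoint holds back the anaphase promoting complex until all are attached, and motors and anillin complete the division. Genes of the first kind are textbook targets of E2F factors, while many of the second are controlled through CHR and CCAAT elements by the MuvB complexes with B-Myb and Foxm1. In skin, such genes are normally active in the basal layer and hair follicle.

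The promoters of some members are shown because the members moved together over tumours (below) and belong to both of these classes. RefSeq (GRCm38.p6) gave a window of 250 bases before to 50 after the start for 36 of the 42, and it held no entry used here for Ccna2, Aurkb, Foxm1, Kif20a, Tpx2 and Mcm4. The letters TTTGAA or TTCGAA (CHR) on either strand stood in 20 of 27 mitosis promoters (74.1%), in 2 of 9 replication promoters (22.2%) and in 19.4% of all 27025. CCAAT on either strand stood in 19 of 27 (70.4%), 8 of 9 (88.9%) and 37.9%. An E2F match, searched on either strand as TTCCCGC and also as the variants TTGGCGC with a doubled G, TTCGCGC with an inner CG, and TTGCCGC with a doubled C, stood in 3 of 27 (11.1%), 6 of 9 (66.7%) and 9.69%, and the mitosis share lay below the 16.4% of genes past the filter. Among genes past the filter with an entry (10268), CHR stood in 14.0% and CCAAT in 38.3%. A reversed TTGGCGC can overlap CCAAT by its last letters. CHR with CCAAT in the same window was found in 17 of 27 mitosis promoters (63.0%), 2 of 9 replication promoters, 7.70% of all and 5.77% of genes past the filter. A match is a description of letters and not a shown binding site. The members below are the 4 with a window among those that rose in spindle carcinomas, then Plk1 as a mitotic kinase with both CHR and CCAAT, then Mcm5 and Mcm6 as helicase subunits with several E2F matches; capitals mark CHR, CCAAT and E2F letters.
Anln, chr9:22389157-22389456, minus strand: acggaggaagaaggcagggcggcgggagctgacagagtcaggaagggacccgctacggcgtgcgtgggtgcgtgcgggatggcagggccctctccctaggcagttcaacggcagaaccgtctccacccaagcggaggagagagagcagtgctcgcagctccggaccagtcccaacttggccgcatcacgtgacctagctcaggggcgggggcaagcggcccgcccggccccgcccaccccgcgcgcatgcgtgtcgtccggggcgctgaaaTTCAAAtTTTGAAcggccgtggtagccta
Racgap1, chr15:99651607-99651906, minus strand: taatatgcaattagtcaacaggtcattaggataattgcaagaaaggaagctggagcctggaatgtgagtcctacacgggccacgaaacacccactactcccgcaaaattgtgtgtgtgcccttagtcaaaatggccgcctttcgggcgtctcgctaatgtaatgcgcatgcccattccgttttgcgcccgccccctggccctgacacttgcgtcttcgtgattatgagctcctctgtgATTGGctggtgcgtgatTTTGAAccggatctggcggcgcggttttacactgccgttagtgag
Cenpf, chr1:189688037-189688336, minus strand: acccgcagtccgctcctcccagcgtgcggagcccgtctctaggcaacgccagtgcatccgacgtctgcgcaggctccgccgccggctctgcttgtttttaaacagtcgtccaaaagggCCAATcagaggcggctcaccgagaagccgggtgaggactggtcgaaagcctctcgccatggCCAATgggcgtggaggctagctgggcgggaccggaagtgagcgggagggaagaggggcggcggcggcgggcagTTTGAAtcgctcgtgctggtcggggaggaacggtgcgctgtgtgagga
Ndc80, chr17:71526808-71527107, minus strand: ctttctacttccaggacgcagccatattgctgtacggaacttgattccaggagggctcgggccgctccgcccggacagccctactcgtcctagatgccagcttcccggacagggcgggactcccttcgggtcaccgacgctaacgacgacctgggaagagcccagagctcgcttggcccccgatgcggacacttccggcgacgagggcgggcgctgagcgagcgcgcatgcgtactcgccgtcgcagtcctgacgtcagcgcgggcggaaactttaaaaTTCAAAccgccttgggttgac
Plk1, chr7:122159185-122159484, plus strand: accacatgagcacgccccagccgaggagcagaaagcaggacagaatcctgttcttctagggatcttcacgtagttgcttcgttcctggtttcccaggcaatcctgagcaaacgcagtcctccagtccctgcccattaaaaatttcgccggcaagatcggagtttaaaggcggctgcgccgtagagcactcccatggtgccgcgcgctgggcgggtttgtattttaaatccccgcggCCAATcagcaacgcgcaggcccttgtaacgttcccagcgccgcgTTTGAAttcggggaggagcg
Mcm5, chr8:75109259-75109558, plus strand: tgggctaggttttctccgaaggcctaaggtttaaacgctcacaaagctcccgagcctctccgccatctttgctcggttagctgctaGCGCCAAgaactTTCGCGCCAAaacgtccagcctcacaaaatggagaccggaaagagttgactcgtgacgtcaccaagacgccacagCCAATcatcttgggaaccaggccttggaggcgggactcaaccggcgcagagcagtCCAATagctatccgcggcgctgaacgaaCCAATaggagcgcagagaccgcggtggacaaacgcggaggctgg
Mcm6, chr1:128359656-128359955, minus strand: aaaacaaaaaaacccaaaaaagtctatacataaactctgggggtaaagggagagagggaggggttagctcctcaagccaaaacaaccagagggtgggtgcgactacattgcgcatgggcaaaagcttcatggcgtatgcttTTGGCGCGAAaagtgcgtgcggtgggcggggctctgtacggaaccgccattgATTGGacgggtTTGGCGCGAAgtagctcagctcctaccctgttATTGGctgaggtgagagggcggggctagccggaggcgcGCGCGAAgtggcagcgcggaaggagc

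Some arrays went against their labels. 12 of the 60 did not match the labelled sex by Xist and 3 Y-linked genes (3 opposite, 6 with both signals, 3 with neither), and 2 pairs of arrays from different mice were as alike as a pair from 1 mouse (SCC 18 with no histology 3, and SCC 21 with SCC 22). The spread of log2 differences within those pairs was 0.346 and 0.394, against 0.388 for SCC 7 and SCC 8, tumours of 1 mouse. That was the closest pair from 1 mouse, and the other such pairs ran from 0.645 to 1.19. SCC 22 and SCC 23, labelled as 1 mouse, were at 0.954, so SCC 22 was closer to SCC 21 of another mouse. Results are given with and without these arrays where they changed. Array medians ran from 4.43 to 4.56 after the authors' normalization.

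The 40 members moved together across tumours. Over 55 mice the 780 pairs of members had a median Pearson r of 0.60, none was negative, and 76.0% exceeded 0.5. Over all pairs of genes past the filter the median was 0.00 and 2.44% exceeded 0.5. Pairs of mitosis members had a median r of 0.66, pairs of replication members 0.52, and mixed pairs 0.52. The values share arrays and normalization and are a description. Without the arrays in doubt (40 mice) the median of all member pairs was 0.65, in SCC alone it was 0.63, and in spindle carcinomas alone it was 0.69 with 2 pairs below 0.

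**Figure D1:**
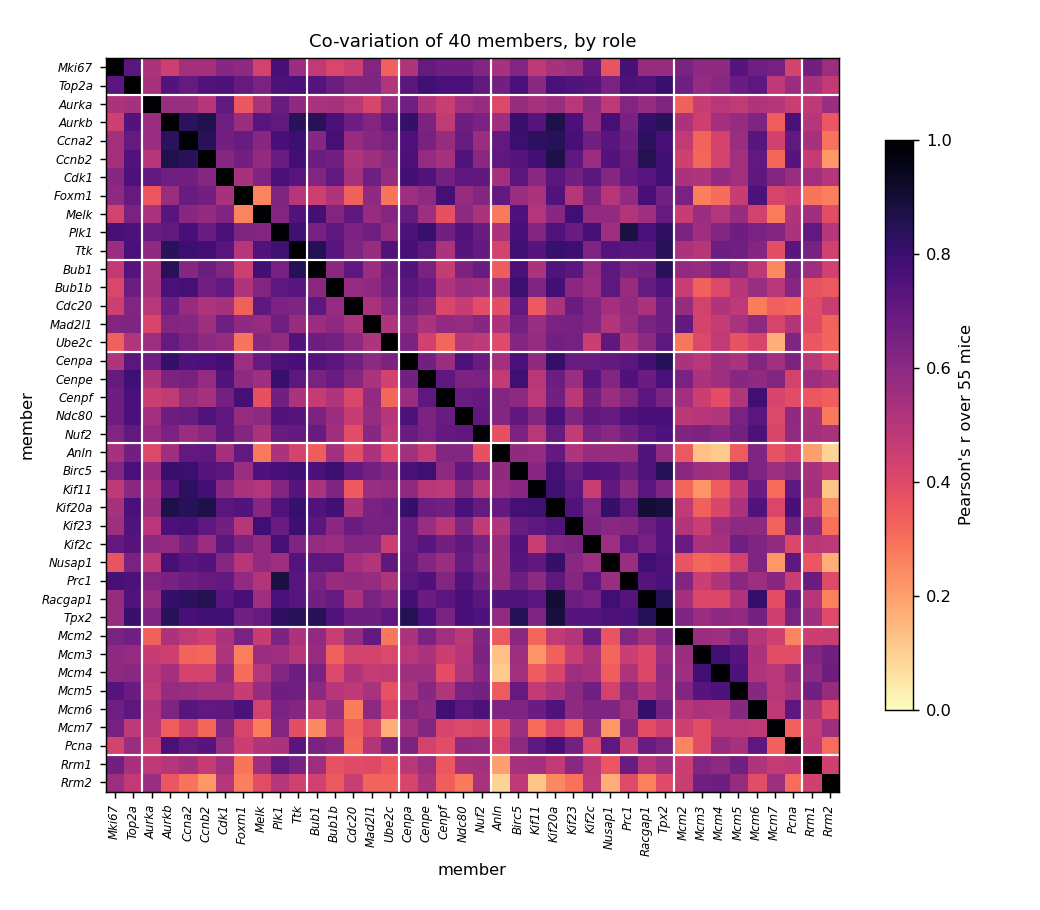
Pearson's r over 55 mice for each pair of the 40 tested members, ordered by role with white lines between roles. The darkest squares lie among the mitosis members (median 0.66), and the 4 palest join Anln to Rrm2, Mcm4 and Mcm3 and Rrm2 to Kif11.

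Tpx2, which activates Aurora A on the spindle, followed the mean of the other members most closely (r = 0.92), then Kif20a, the mitotic kinesin of the central spindle (0.89), and Plk1, the Polo kinase (0.89). Rrm2 followed it least (0.49), and Mcm7 was next (0.55). The closest pair was Racgap1 with Kif20a (r = 0.90), both of cytokinesis. The loosest was Rrm2 with Anln (0.09), which organizes the contractile ring, followed by Mcm4 with Anln (0.11), Rrm2 with Kif11 (0.12) and Mcm3 with Anln (0.13). Anln had its highest r with Racgap1 (0.74), Ccnb2 (0.71) and Foxm1 (0.71), so its pairs spanned most of the range seen among the members.

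Mki67, the Ki-67 antigen used in pathology to count cycling cells, was set against each of the other 40 measured members. 39 of 40 correlated with it by both Pearson's r and Spearman's rho (permutation test, adjusted p under the threshold of 0.05 over 40), and Tyms did not (r = 0.19, rho = 0.20, permutation adjusted p = 0.172 and 0.142). How many of all tested genes would pass against Mki67 was not counted. The count of members therefore has no background beside it and is a description. The median r was 0.57, and it was 0.55 without SCC 26 and SCC 34, the 2 mice farthest from the Mki67 median. Plk1 was highest (r = 0.77, rho = 0.77, both permutation p = 1e-05, the smallest that 100000 permutations can give, adjusted p = 2e-05 and 2.22e-05, r = 0.73 without those mice). Prc1, which bundles microtubules at the midzone, was next (r = 0.77, rho = 0.76). Ube2c, the ubiquitin carrier of the anaphase promoting complex, had the lowest of those that passed (r = 0.33, rho = 0.32, adjusted permutation p = 0.0129 and 0.0179), and its r was 0.25 without the same 2 mice. Within SCC the median r was 0.63 and within spindle carcinomas 0.69, each as a description.

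Members were summed up as a score, the mean deviation of the 41 measured members from their own means over mice. Tyms, which did not pass the filter, is among the 41 and among the 10 replication members scored below. The score over mice was centred on 0. The score ran from −0.86 in SCC 26, a poorly differentiated p53 mutant SCC, to 0.86 in spindle 4, a p53 mutant spindle carcinoma, a range of 1.73 or 3.31-fold. SCC 33 (−0.84) was almost as low as SCC 26, and SCC 33 was moderately differentiated and not p53 mutant, so the lowest mice did not share these labels. Single members spanned more: Aurka 8.63-fold, Cenpf 8.24-fold and Kif11, the bipolar spindle motor, 7.67-fold. Kif11 had the largest SD over mice (0.67), above that of 80.9% of all tested genes. Pcna and Mcm7 had the smallest among the tested members (0.31 each), above that of 32.3% and 32.5% of tested genes.

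SCC had a mean score of −0.06 ± 0.36 (SD, n = 35) and spindle carcinomas 0.11 ± 0.41 (n = 13). The SCC scores ran from −0.86 through a median of −0.05 to 0.66, and the spindle scores from −0.54 through 0.08 to 0.86, so the groups overlapped widely. The tumours without histology lay within both (0.10 ± 0.15, n = 7). The mitosis members alone had a mean of 0.15 ± 0.46 in spindle carcinomas and −0.08 ± 0.40 in SCC, while the 10 replication members were at −0.01 in both (SD 0.32 and 0.28). Mitosis minus replication was 0.16 ± 0.29 in spindle carcinomas and −0.07 ± 0.21 in SCC. No test of the scores was made.

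**Figure D2:**
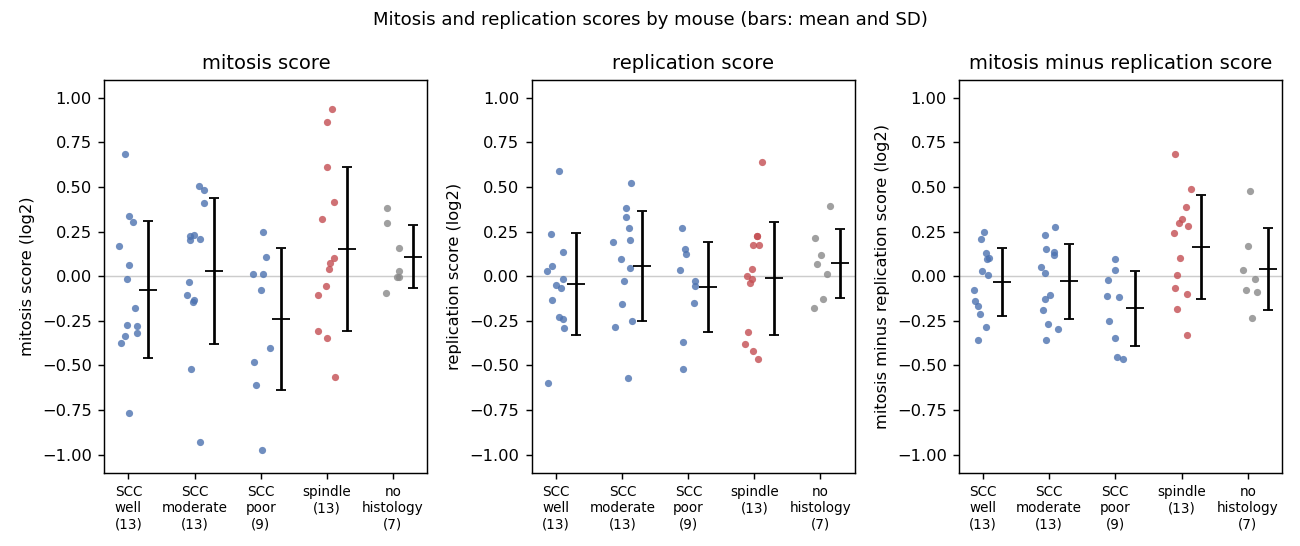
Mitosis score, replication score and their difference (log2, vertical axes) for each mouse by histology and grade, with the number of mice in brackets; bars are the mean and SD. Spindle mice reach the highest mitosis scores (0.93 in spindle 4), while the replication scores of all 5 groups overlap around 0.

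Samples of 1 mouse were compared in 5 pairs. The titles of SCC 3 and SCC 4 share what reads as a tumour number, as do those of no histology 6 and no histology 7. Whether each of these pairs is 1 carcinoma sampled again is not said in the labels. The scores differed by 0.08, 0.15 and 0.19 in 3 SCC pairs and by 0.33 between no histology 6 and no histology 7, where 33 of 41 members were lower in the second. The median difference over 1485 pairs of mice was 0.34, so that last pair was as far apart as an ordinary pair of mice. Spindle 8 (0.34) and spindle 9 (−0.95) of 1 mouse differed by 1.29, and 40 of 41 members were lower in spindle 9, the lowest of all 60 arrays. Spindle 9 was also 1 of 3 arrays with the largest 3′ minus 5′ difference of the Gapdh control probe sets (0.54 log2), a sign of shortened RNA, and matched neither sex, and spindle 8 gave both sex signals. Their part in the difference was not tested. The near-identical arrays of different mice had near scores: −0.13 and 0.05 in one pair and −0.05 and 0.07 in the other. SCC 22 of the latter also belongs to the SCC pair whose scores differed by 0.15.

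Aurka, the Aurora A kinase of the spindle poles, stood apart in 1 tumour. It was at 9.93 in SCC 29, a moderately differentiated SCC that is not p53 mutant, while the next highest array, SCC 28, was at 8.55 and the median of the other arrays was 7.95, 3.93-fold lower. The 6 other tested members on the same chromosome 2 (Tpx2, Ube2c, Bub1, Bub1b, Nusap1 and Pcna) differed from the median of the other arrays by −0.33 (Pcna) to −0.76 (Bub1b) in SCC 29, with ranks from 46 to 55 of 60. Many genes beside Aurka were high. Of the 25 tested genes that follow it in RefSeq order, 15 had their highest level of all 60 arrays in SCC 29, and they lay a median of 1.37 above the other arrays. Of the 25 before it, 1 did (median difference −0.03), and of 12740 other tested genes 0.942%. With the same window of 50 genes, the other 39 tested members shared their highest array with at most 7 neighbours (Cenpe in spindle 2 and Mcm7 in SCC 30) and with a median of 1. This array was looked at after its Aurka value was seen, and the cause was not tested.

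**Figure D3:**
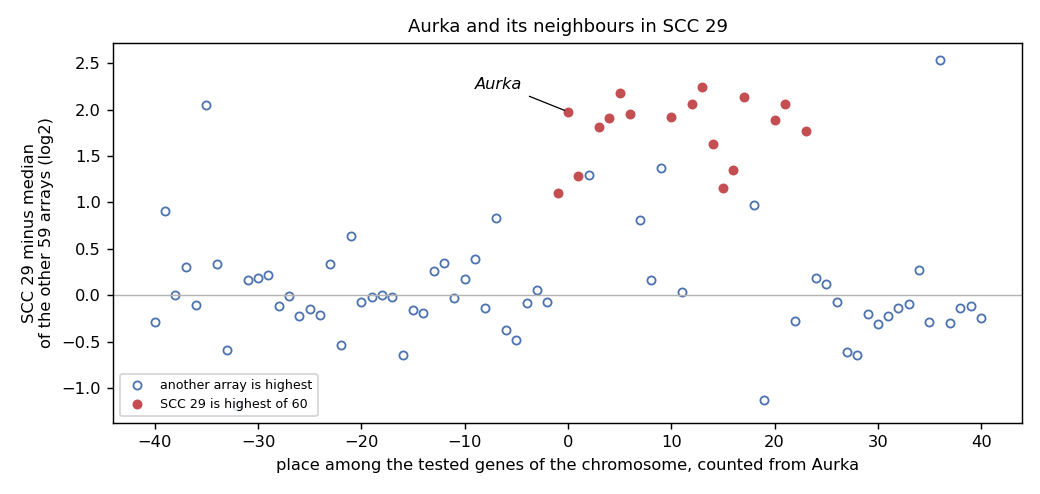
Difference of SCC 29 from the median of the other 59 arrays (log2, vertical axis) for the tested genes up to 40 places either side of Aurka on its chromosome (horizontal axis); filled points mark genes whose highest array of 60 is SCC 29. A block of high values starts 1 place before Aurka and ends 23 places after it, and the 2 points as high outside it belong to genes whose highest array is another.

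Tumours labelled spindle cell carcinoma were compared with those labelled SCC to ask how the members differ between these histologies. 5 of 40 members rose in spindle carcinomas (12.5%, limma, adjusted p under 0.05) and none fell, where 15.5% of all 12791 genes rose, 11.0% fell and 26.5% were called in all. By unadjusted p 8 members passed (20.0%) against 37.7% of all genes. By limma the members' share that rose was below that of all genes. The SAM-type statistic called the same 5 (12.5%), where 10.1% of all genes rose by it, and with a common 75th percentile of the arrays the same 5 passed where 12.5% of all genes rose. The members' share was thus near the background, on either side of it by the method. The median difference of the members was 0.17 (32 of 40 above 0), that of all genes 0.02, and every member's ranges in the groups overlapped.

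Among cyclins, kinases and Foxm1, 1 of 9 rose. Foxm1, the forkhead factor of G2 and M genes, ran from 6.39 through 7.08 to 8.38 in spindle carcinomas and from 5.48 through 6.49 to 7.39 in SCC (lowest, median, highest). 10 of 13 spindle mice lay above the SCC median. Its difference was 0.69 (SE 0.18, limma adjusted p = 0.0038), or 1.61-fold, and its other passing probe sets gave 0.30 and 0.38. Ccnb2, a partner of Cdk1, had 0.48 with an interval of 0.09 to 0.88 (95% CI) and an adjusted p of 0.063. The other 7 lay between −0.07 (Melk) and 0.25 (Ccna2), and the other probe set of Ccna2 gave 0.49.

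Of the 5 centromere and kinetochore members 2 rose and all lay above 0. Cenpf, a large protein of the outer kinetochore, ran from 7.22 through 7.73 to 8.99 in spindle carcinomas and from 5.95 through 7.63 to 8.70 in SCC. The medians were close, and the difference of means was 0.49 (SE 0.17, limma adjusted p = 0.026), with 0.28 and 0.23 from its other probe sets. Ndc80, the microtubule-binding subunit of the kinetochore, ran from 5.64 through 6.34 to 7.57 against 4.64 through 6.05 to 7.05. 11 of 13 spindle mice were above the SCC median, with a difference of 0.48 (SE 0.17, adjusted p = 0.030) that had an adjusted p of 0.057 without the arrays that did not match their sex.

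Of the 10 members of motors, spindle and cytokinesis 2 rose and all lay above 0. Anln had the largest difference of the members. It ran from 9.01 through 9.95 to 10.90 in spindle carcinomas and from 8.11 through 9.26 to 10.07 in SCC, and 12 of 13 spindle mice exceeded the SCC median. The difference was 0.75 (SE 0.17, limma adjusted p = 0.00091), 1.69-fold, and 0.80 by its other probe set. Racgap1, the GTPase-activating subunit of centralspindlin, ran from 7.16 through 8.31 to 9.04 against 6.65 through 7.85 to 8.32. Its difference was 0.53 (SE 0.17, adjusted p = 0.016) and 0.89 by its other passing probe set. Kif23, its motor partner in centralspindlin, was at 0.03 (95% CI −0.27 to 0.33). Kif20a was at 0.45 (95% CI 0.07 to 0.82) with an adjusted p of 0.069, and the rest of this role lay between 0.15 and 0.39.

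**Figure D4:**
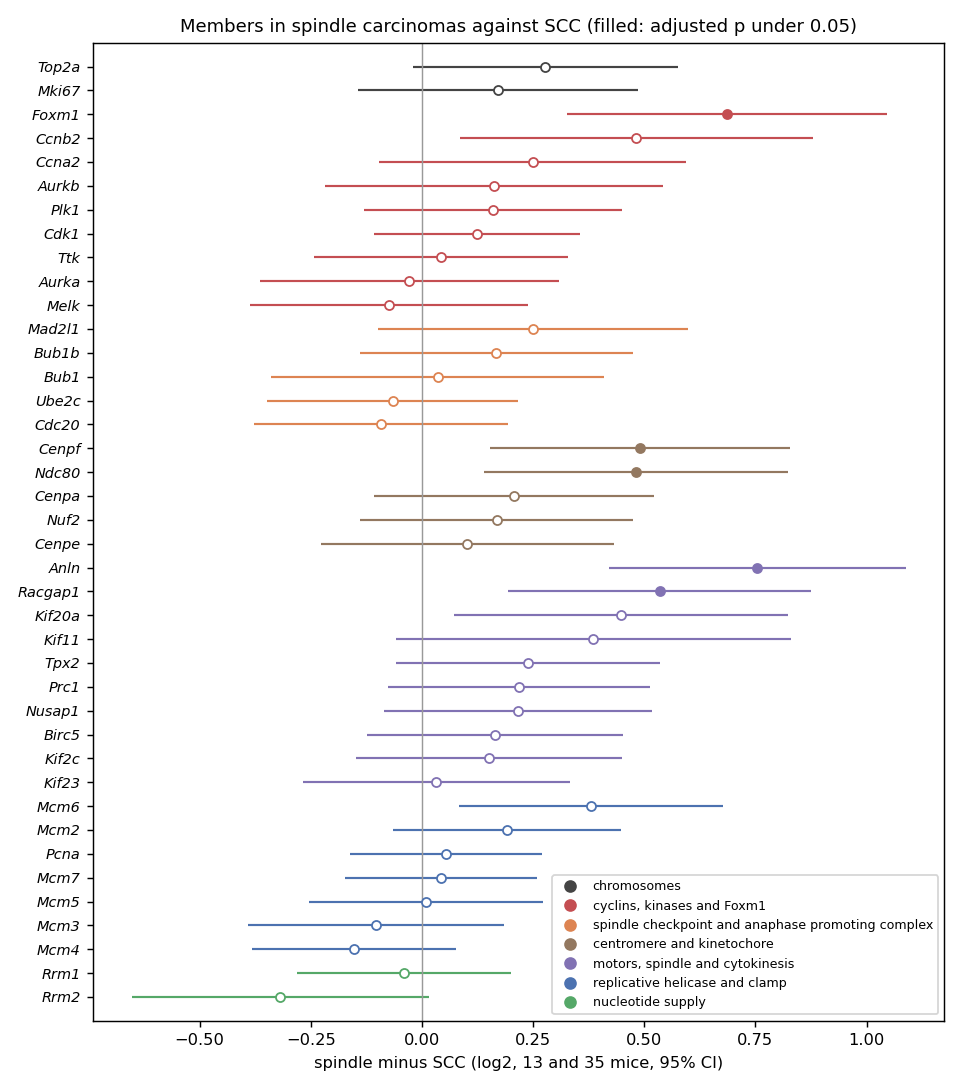
Difference of spindle carcinomas (13 mice) from SCC (35 mice) in log2 with its 95% CI, for the 40 tested members coloured by role; filled points have a limma adjusted p under 0.05. The 5 filled points (Anln 0.75, Foxm1 0.69, Racgap1 0.53, Cenpf 0.49, Ndc80 0.48) are all mitosis members, and Rrm2 (−0.32) lies at the other end. The replication member Mcm6 (0.38) narrowly missed the threshold (limma adjusted p = 0.0503).

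None of the 5 checkpoint and anaphase promoting complex members passed, with differences from −0.09 (Cdc20) to 0.25 (Mad2l1). Mki67 ran from 9.28 through 10.28 to 10.94 in spindle carcinomas and from 8.51 through 10.02 to 11.04 in SCC, a difference of 0.17 (95% CI −0.14 to 0.49, adjusted p = 0.45). Top2a, the topoisomerase that untangles chromosomes, was at 0.28 (95% CI −0.02 to 0.58, adjusted p = 0.16). None of the 9 replication members passed, and their median was 0.01. Mcm2 was at 0.19 (95% CI −0.06 to 0.45) and Pcna at 0.05 (95% CI −0.16 to 0.27). Mcm6 came nearest at 0.38 (limma adjusted p = 0.0503). It passed with a stricter filter of 30 arrays, with quantile normalisation, with sex as a covariate and with eBayes set to trend and robust. It also passed without the near-identical arrays and without the 3 arrays of largest Gapdh difference. Under the other settings it did not pass. Rrm2 was the lowest member, at −0.32 (95% CI −0.65 to 0.02), with −0.38 and −0.33 by its other probe sets. A missed threshold does not show that these members were alike, and the median distance from a difference to the end of its interval was 0.30.

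The count of 5 depended on the samples. Against poorly differentiated SCC alone (9 mice), 0 of 40 passed, as did 0.0% of all genes, by limma, and 11 members passed the unadjusted p (27.5%) against 17.9% of all. The differences were then larger, with a median of 0.29, 38 of 40 above 0, and Anln at 0.98 (adjusted p = 0.14). With the labelled origin of the mice, a code that the labels do not explain, as a covariate 3 passed (Anln, Foxm1 and Racgap1). That is 7.5% of the members, where 14.9% of all genes rose. Without the 3 arrays of largest Gapdh difference (SCC 6, SCC 36 and spindle 9) 8 passed (20.0%, all genes 16.5%), the 5 with Mcm6, Ccnb2 and Kif20a. Without the arrays that did not match their sex 4 passed (10.0%, all genes 14.1%). Without the near-identical arrays 6 passed (15.0%, all genes 17.0%), the 5 with Mcm6.

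Markers of other cells differed between the same groups. All 8 keratinocyte markers fell in spindle carcinomas (mean level 9.24 ± 2.01 against 11.35 ± 1.38, from 6.02 to 12.05 and from 4.76 to 12.19), as did all 4 tested neutrophil markers (9.48 ± 0.94 against 10.28 ± 0.61). 2 of 7 macrophage markers rose, and of 8 fibroblast markers 2 rose and 1 fell. Of the remaining lists, 2 of 3 tested adipocyte markers and 1 of 6 tested T and NK cell markers fell, and none of 2 B and plasma cell, 5 endothelium and 6 striated muscle markers passed. Over all mice the score had r = −0.30 with the keratinocyte mean and −0.34 with the neutrophil mean, and −0.24 with the Gapdh 3′ minus 5′ difference. Within SCC these were −0.13, −0.23 and −0.18, and within spindle carcinomas (13 mice) −0.49, −0.39 and −0.45. Without the 2 farthest mice they were 0.00, −0.14 and −0.13 within SCC, and −0.23, −0.48 and −0.20 within spindle carcinomas. The fibroblast and macrophage means had r = −0.33 and −0.31 with the score within SCC, and 0.11 and 0.41 within spindle carcinomas. The Actb 3′ minus 5′ difference had −0.27 over all mice, −0.15 within SCC and −0.61 within spindle carcinomas. Their part in the members' differences was not tested.

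Within SCC the grades were compared, 9 poorly against 13 well and 13 moderately differentiated mice. 0 of 40 members passed in any of the 3 comparisons by limma, where 0.0% of all genes did, and the SAM-type statistic called 0 as well. Poorly differentiated SCC had the lowest mean score (−0.20 ± 0.36, from −0.86 to 0.22), below well (−0.07 ± 0.35, from −0.72 to 0.66) and moderately differentiated SCC (0.04 ± 0.38, from −0.84 to 0.48), and the 3 ranges overlapped. By median score the order differed, with well differentiated SCC lowest (−0.13), then poor (−0.05) and moderate (0.15). The medians of the members' differences were −0.15 for poor minus well (34 of 40 below 0), −0.23 for poor minus moderate (38 below 0) and 0.13 for moderate minus well (35 above 0). The comparisons share their groups, and the medians of all genes lay within 0.02 of 0. At an unadjusted p under 0.05, poor minus well had 1 member (2.5%, all genes 5.37%), poor minus moderate 5 (12.5%, all genes 8.51%) and moderate minus well 0 (all genes 2.49%).

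Kif23 differed most between poor and moderate SCC. It ran from 7.04 through 7.53 to 7.85 in poor and from 7.44 through 7.88 to 8.79 in moderate SCC, and 0 of 9 poor tumours exceeded the moderate median. The difference was −0.55 (95% CI −0.93 to −0.18, limma adjusted p = 0.57). Prc1, its neighbour at the spindle midzone, was at −0.41 (95% CI −0.74 to −0.08), also with 0 of 9 poor tumours above the moderate median. Rrm1, the large subunit of ribonucleotide reductase, was at −0.36 (95% CI −0.62 to −0.10) and Mki67 at −0.44 (95% CI −0.85 to −0.03), with 1 of 9 poor tumours above the moderate median in each. Top2a was at −0.23 (95% CI −0.61 to 0.15), Mcm2 at −0.13 (95% CI −0.49 to 0.22) and Pcna at −0.04 (95% CI −0.32 to 0.24).

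Poor against well differed most in Ndc80, which ran from 4.64 through 5.58 to 6.37 in poor and from 4.87 through 6.11 to 7.05 in well differentiated SCC (difference −0.46, 95% CI −0.88 to −0.04, adjusted p = 0.89). Rrm1 was at −0.22 (95% CI −0.48 to 0.04), Kif23 at −0.29 (95% CI −0.66 to 0.09) and Mki67 at −0.25 (95% CI −0.66 to 0.16). Top2a was at −0.10 (95% CI −0.48 to 0.28), Mcm2 at 0.00 (95% CI −0.35 to 0.36) and Pcna at 0.07 (95% CI −0.21 to 0.35). Without the arrays that did not match their sex the median over members was −0.05, with 26 of 40 below 0. Moderate minus well spanned −0.11 (Bub1b) to 0.27 (Kif23, 95% CI −0.07 to 0.61), with Ccnb2 at 0.26, Mki67 at 0.19, Top2a at 0.13, Rrm1 at 0.14, Mcm2 at 0.14 and Pcna at 0.10, none past the threshold. 5 of the 9 poor mice were p53 mutant, against 1 well and 2 moderate, so grade and p53 were unevenly mixed. The Actb 3′ minus 5′ difference was 0.74 ± 0.16 in poor, 0.81 ± 0.25 in moderate and 0.99 ± 0.54 in well differentiated SCC, and striated muscle markers averaged 7.79 ± 1.63, 6.81 ± 0.56 and 7.03 ± 1.09. Macrophage markers averaged 9.59 ± 0.64 in poor and 9.01 ± 0.80 in moderate SCC. Keratinocyte markers averaged 11.22 ± 1.19 in poor, 11.69 ± 0.47 in moderate and 11.10 ± 2.01 in well differentiated SCC, with a lowest of 4.76 in the last. Their part in these differences was not tested.

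p53 mutant tumours (14 mice) were compared with the rest (41 mice), since p53 restrains the cycle through Cdkn1a. 0 of 40 members passed by limma or the SAM-type statistic, where 0.281% of all genes passed by limma, and 0 passed the unadjusted p, where 11.2% of all genes did. The members' median was 0.04 with 24 of 40 above 0, and the scores were 0.03 ± 0.38 and −0.01 ± 0.36. Cenpa, the histone of the centromere, had the smallest p. It ran from 8.00 through 9.13 to 9.98 in mutant and from 7.98 through 8.85 to 9.89 in other mice, a difference of 0.26 (95% CI −0.03 to 0.55, adjusted p = 0.53), and 12 of 14 mutant mice exceeded the median of the others. Bub1, a checkpoint kinase, was at 0.25 (95% CI −0.08 to 0.58) and Nusap1, a microtubule-binding protein, at 0.21 (95% CI −0.07 to 0.48). Mki67 was at −0.13 (95% CI −0.43 to 0.16), Top2a at −0.05 (95% CI −0.33 to 0.22), Mcm2 at 0.09 (95% CI −0.15 to 0.33) and Pcna at 0.09 (95% CI −0.10 to 0.29). No member's interval reached beyond 0.58 on either side of 0. In SCC alone the members' median was −0.02 with 19 above 0. There 1 of 40 members had an unadjusted p under 0.05 by limma, against 1318 of all 12791 genes. The mutant mice were 8 SCC, 4 spindle and 2 without histology. The Actb 3′ minus 5′ difference was 0.70 ± 0.22 in mutant and 0.87 ± 0.36 in other mice, and its part was not tested.

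Node-positive mice (15) were compared with node-negative mice (19). 0 of 40 members passed by limma (all genes 0.0%) or the SAM-type statistic, and 0 passed the unadjusted p (all genes 4.17%). The median was 0.12 and 35 of 40 lay above 0, and it was 0.01 with 22 above 0 once the labelled origin entered as a covariate. Cenpe, the kinesin of the kinetochore, ran from 6.97 through 7.83 to 8.79 in node-positive and from 6.23 through 7.66 to 8.71 in node-negative mice (difference 0.34, 95% CI −0.03 to 0.71). Birc5, the survivin subunit of the chromosomal passenger complex, was at 0.26 (95% CI −0.04 to 0.56) with 12 of 15 node-positive mice above the other median. Nusap1 was at 0.20 (95% CI −0.07 to 0.48) and Mki67 at 0.25 (95% CI −0.09 to 0.59). Top2a was at 0.12 (95% CI −0.20 to 0.44), Mcm2 at 0.06 (95% CI −0.23 to 0.36) and Pcna at −0.01 (95% CI −0.21 to 0.19). The group means were thus closer than the SD within groups for each of these members.

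Mice resistant to papillomas (17) were compared with sensitive mice (16). 0 of 40 members passed by limma (all genes 0.0%) or the SAM-type statistic, and 0 passed the unadjusted p (all genes 8.25%). The median was 0.09 with 33 of 40 above 0, and −0.005 with 17 above 0 with origin as a covariate. Nusap1 ran from 6.53 through 7.83 to 8.30 in resistant and from 6.58 through 7.48 to 8.27 in sensitive mice, a difference of 0.28 (95% CI −0.02 to 0.58, adjusted p = 0.64), and 15 of 17 resistant mice exceeded the sensitive median. Cenpa was at 0.24 (95% CI −0.06 to 0.53) and Pcna at 0.18 (95% CI −0.05 to 0.40, 14 of 17 above the sensitive median). Mki67 was at 0.01 (95% CI −0.31 to 0.33), Top2a at 0.00 (95% CI −0.32 to 0.33) and Mcm2 at −0.01 (95% CI −0.26 to 0.24). Mki67, Top2a and Mcm2 changed sign under other settings. 8 of the resistant and 2 of the sensitive mice were p53 mutant. RNA quality and markers also differed: the Actb 3′ minus 5′ difference was 0.64 ± 0.13 in resistant and 0.93 ± 0.43 in sensitive mice, and that of Gapdh 0.07 ± 0.13 and 0.24 ± 0.46. Neutrophil markers averaged 9.97 ± 0.68 and 10.50 ± 0.50, and striated muscle markers 6.74 ± 0.84 and 7.38 ± 1.37, with 0 of 4 and 0 of 6 past the threshold. Their part in the members' differences was not tested.

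**Figure D5:**
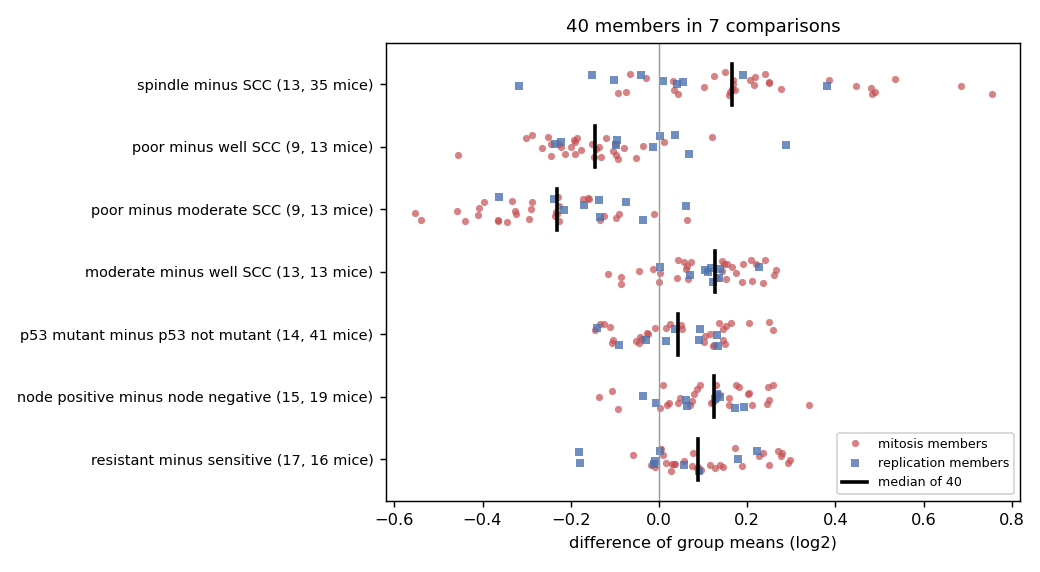
Difference of group means (log2, horizontal axis) of each of the 40 tested members in the 7 comparisons, with the number of mice in the first and second group in brackets and a bar at the median of the 40. The median lies between −0.23 (poor minus moderate SCC) and 0.17 (spindle minus SCC), and only the spindle row holds members past the threshold (5 of 40).

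Other genes of the same processes were counted from lists. Of 36 further mitosis genes 3 rose in spindle carcinomas and none fell: Nek2, a centrosome kinase (0.66), Stmn1, the microtubule destabilizer stathmin (0.52), and Espl1, separase (0.44). Of 28 further replication genes 3 rose and 1 fell. Rfc3, a clamp loader subunit (0.58), Cdc45 (0.49) and Gins2 (0.34) of the replicative helicase rose, and Ccne1, the cyclin of S phase entry, fell by 0.51. Of 23 regulators 3 rose and 4 fell. Cdkn1a, the p21 inhibitor (−0.72), Btg2, an antiproliferative p53 target (−0.68), Rb1 (−0.39) and Rbl1 (−0.36) fell, and Rbl2 (0.56), E2f1 (0.41) and Tfdp2 (0.40) rose. These counts stand against the same 15.5% of genes that rose and 11.0% that fell. No gene of the 3 lists passed in the other 6 comparisons by limma, where 0 to 5 genes of a list passed the unadjusted p. The share of all genes that passed it ran from 2.49% (moderate minus well SCC) to 11.2% (p53). The count of 5 was of the 36 mitosis genes in poor minus moderate SCC, where 8.51% of all genes passed.

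The mitosis list followed the members' score over mice with a median r of 0.74, the replication list with 0.60 and the regulators with 0.22, against 0.01 for all other genes. The 5 genes outside the members with the highest r were Smc2 (0.88), Spag5 (0.88), Ncapd2 (0.88), Cenph (0.88) and Ncapg (0.85), of which Smc2, Ncapd2 and Ncapg are condensin subunits, Cenph a centromere protein and Spag5 a spindle protein. Among regulators E2f8, Mybl2 and Tfdp1 were highest (0.51 each), and Btg2 (−0.45) and Cdkn1a (−0.31) lowest. These values come from the same arrays as the score and are a description.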

How the data were processed

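Expression in 60 carcinomas of 55 mice was measured on Affymetrix mouse genome expression arrays. The authors deposited log2 values normalized by RMA, whose version and build are not given in the sources used here, and these values were not normalized again. Of 45101 probe sets 34958 carried 1 gene symbol, 932 several and 9211 none in the platform annotation, and 34754 matched RefSeq. One probe set a gene, that of highest mean, was kept (18194 genes), and a gene was tested if at least 8 arrays had it over their own median (12791). Arrays of 1 mouse were averaged, groups followed the labels, and replicates were numbered in accession order. Differences were tested with limma 3.58.1 (R 4.3.3, lmFit and eBayes) over all tested genes with Benjamini-Hochberg adjustment at 0.05. The study's methods name SAM, so an alternative used a SAM-type statistic (100 permutations, 5% false discovery rate). Correlations with Mki67 used 100000 permutations, two-sided (Python 3.11.15, scipy 1.17.1). Precision is limited by the number of arrays. In each comparison the members past the threshold were named, or the 3 of smallest p where fewer passed, with Mki67, Top2a, Mcm2 and Pcna. Alternatives changed the filter, probe set choice, scaling, covariates and samples. The fits were tested on simulated data. The members and lists were chosen with earlier results of these data known.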

Additional observations from a re-analysis of the deposited data

Results flagged for a closer look

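Aurkb, the Aurora B kinase, stood apart in the tumours without histology: no histology 8 was at 7.85 and the next highest of the 7 mice at 7.17, a gap of 0.578 of the group's range. It was the only one of 84 such checks to stand out. Chance alone gives about 1 in 20 groups, a higher rate than 1 of 84.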

How the results depend on the processing

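Of the member counts and score differences, all but 3 alternative values stayed within 1.5 times the value reported or within the spread between mice. The exceptions were the 5 members higher in spindle carcinomas than in SCC, which became 8 without the 3 arrays of largest Gapdh difference, 3 with origin as a covariate and 0 against poorly differentiated SCC only. In every other comparison 0 members passed under each alternative run. The SD of the score over mice (0.36) exceeded the differences of mean scores between the groups compared. A score difference could thus vanish or change sign and still count as within that spread, so the rule was a weak check for scores. Of the named members' differences 717 kept direction and side of the threshold, 8 lost the threshold and 29 changed sign, and the cause was not tested. For poor minus well SCC, Mcm2 became −0.010 with mouse as a random effect, −0.032 with the mean of the probe sets, −0.0028 with a common 75th percentile, −0.037 without arrays not matching the labelled sex and −0.074 with origin, and Pcna became −0.00068 without the 3 Gapdh arrays. For poor minus moderate SCC, Pcna became 0.021 without the arrays not matching sex. For p53, Top2a became 0.020 without those arrays and 0.061 without the 3 Gapdh arrays. For nodes, Mcm2 became −0.011 with origin, and Pcna 0.0054 with quantile normalisation and 0.021 without the 3 Gapdh arrays. For resistant minus sensitive mice, Mki67 became −0.0037 with mouse as a random effect, −0.0083 without near-identical arrays, −0.15 with origin, −0.010 with histology, −0.026 with papillomas at 24 weeks and −0.012 with their log count. Top2a became −0.022 with mouse as a random effect, −0.042 without the 3 Gapdh arrays, −0.11 with origin, −0.022 with histology, −0.042 at 24 weeks and −0.0093 with the log count. Mcm2 became 0.025 with the mean of the probe sets, 0.0043 with quantile normalisation, 0.0089 with a common 75th percentile, 0.0032 without near-identical arrays and 0.0049 without the 3 Gapdh arrays. Of 36 other probe sets of the members past the filter, 2, both of Tpx2, had r under 0.3 with the one used. No paired analysis was possible because the replicate numbers only follow accession order and the groups hold different mice.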
